A study of Mus musculus with 1152 samples.

Results

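The genes described are 5 ligands of the bone morphogenetic protein (BMP) family, Bmp4, Bmp5, Bmp6, Bmp7 and Gdf10, and 5 genes that BMP signalling is known to switch on, Id1, Id2, Id3, Id4 and Smad6. They are 10 of the 46517 genes in a table of read counts from single cells of the adult mouse brain. Their levels were compared across stages of the oligodendrocyte lineage, fibroblasts and vessel cells, asking which cells carried RNA of the ligand and which carried RNA of the targets. Fluorescent cells came from 2 lines of C57BL/6 mice of both sexes, Tagl-CREERT2;Ai14 and Pdgfra-H2BGFP. Vascular fragments had been taken with Dynabeads carrying an antibody against the endothelial protein CD31, digested and sorted by FACS, and libraries were made with SMART-seq2, which amplifies full-length cDNA. In the line written Tagl-CREERT2;Ai14, cells fluoresce red once tamoxifen has activated the recombinase, and in the other a nuclear green protein follows Pdgfra. The labels gave no treatment, and all cells formed 1 sample without replicates, because no well could be tied to a line or an animal.

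BMP ligands are secreted and bind pairs of type I and type II receptor kinases. Many of them, though not all members of the family, lead to phosphorylation of SMAD1, SMAD5 and SMAD9, which enter the nucleus with SMAD4. The Id genes are among their most direct targets. ID proteins lack a DNA-binding domain and hold basic helix-loop-helix factors away from DNA, while SMAD6 feeds back to restrain the pathway. In the oligodendrocyte lineage, BMP signalling and ID2 and ID4 are known as brakes on differentiation, Bmp4 is a known marker of the committed oligodendrocyte precursor (COP), and meningeal fibroblasts are a known source of BMPs in the developing brain.

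Wells were classed by their own marker RNA at 100 CPM (counts per 1000000 reads of the well), with no member of the family among the markers. Of 1152 wells, 857 had at least 50000 reads, and these held 50002 to 1451280 reads (median 279874). The vessel gate held 41 wells, of which 29 had endothelial markers only and 12 endothelial and mural markers, and 0 had mural markers only. The fibroblast gate held 55 wells, the gate of oligodendrocyte precursors (OPC) 97, the COP gate 24 and the oligodendrocyte gate 270. A further 110 wells met the rules of more than 1 lineage and 260 met none, and neither entered a gate. In each gate all 6 markers of its list had a median above 0, but other lists were present too. For vessel wells this was the endothelial list, and 3 of 8 mural markers had a median above 0. Of the OPC wells 44 of 97 had at least 3 of 6 COP markers. In turn 11 of 24 COP wells had at least 3 of 6 OPC markers, so the 2 gates overlapped outside Pdgfra and Enpp6. Of the vessel wells, 18 of 41 had at least 3 of 6 microglial markers (median of the summed list 951 CPM), and of the OPC wells 39 of 97 had at least 3 of 6 astrocyte markers (median 1286 CPM). Of the oligodendrocyte wells, 56 of 270 had at least 3 astrocyte markers and 33 at least 3 of 6 neuronal markers. Choroid plexus markers passed that level in 3 of 41 vessel and 5 of 55 fibroblast wells. Of the endothelial list, Emcn reached 100 CPM in 37 of 55 fibroblast wells (median 509 CPM). Some results of the members are also given without wells holding microglial, astrocyte, neuronal or choroid plexus markers. These alternatives were added after the values were seen. No such values are given for the pathway lists, and the part of other cells was not tested beyond that. The wells came in 3 sets, named 1025s_182s, 600s_182s and 613s in the table, and the sets were uneven. Of the COP wells 22 of 24 were from 600s_182s, and of the fibroblast wells 38 were from 1025s_182s, 6 from 600s_182s and 11 from 613s. No gene with at least 500 exonic bases passed 1.72 counts per exonic base in any well (31163 genes, highest for mt-Rnr2). The member nearest this was Id3 at 0.70, and whether ratios of abundant genes are affected was not tested.

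The promoters of 4 members are shown because these genes mark the contrast described below, Bmp4 as the ligand of COP wells and Id2, Id3 and Smad6 as targets in fibroblast wells. RefSeq windows (GRCm38.p6) were found for 8 of the 10 members, not for Id1 and Bmp7. Each line gives the 250 bases before the annotated start, 5′ to 3′ on the strand of the gene. Capitals mark the SMAD-binding letters CAGAC and the GC-rich SMAD1 and SMAD5 letters GGCGCC, each searched on both strands, which do not overlap in these windows. By these RefSeq starts, the windows of Id2 and Id3 lie inside the GENCODE gene spans given with their values below, which begin further upstream. The windows are Bmp4 chr14:46390670-46390919 (minus strand), Id2 chr12:25096093-25096342 (minus strand), Id3 chr4:136143572-136143821 (plus strand) and Smad6 chr9:64022060-64022309 (minus strand).
Bmp4: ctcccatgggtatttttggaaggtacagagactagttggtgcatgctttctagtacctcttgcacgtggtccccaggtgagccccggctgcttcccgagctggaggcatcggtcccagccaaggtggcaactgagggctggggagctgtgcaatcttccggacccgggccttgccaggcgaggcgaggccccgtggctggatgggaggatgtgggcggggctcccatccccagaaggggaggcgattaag
Id2: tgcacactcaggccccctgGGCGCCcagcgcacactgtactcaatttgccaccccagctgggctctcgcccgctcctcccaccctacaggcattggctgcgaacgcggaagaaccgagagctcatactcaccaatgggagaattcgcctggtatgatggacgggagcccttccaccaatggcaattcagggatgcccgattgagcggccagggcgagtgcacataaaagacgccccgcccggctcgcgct
Id3: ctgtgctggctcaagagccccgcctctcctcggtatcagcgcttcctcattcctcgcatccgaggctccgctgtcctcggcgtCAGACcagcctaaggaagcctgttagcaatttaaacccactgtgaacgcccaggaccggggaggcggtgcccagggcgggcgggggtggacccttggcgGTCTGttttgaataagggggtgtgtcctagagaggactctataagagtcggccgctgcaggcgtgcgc
Smad6: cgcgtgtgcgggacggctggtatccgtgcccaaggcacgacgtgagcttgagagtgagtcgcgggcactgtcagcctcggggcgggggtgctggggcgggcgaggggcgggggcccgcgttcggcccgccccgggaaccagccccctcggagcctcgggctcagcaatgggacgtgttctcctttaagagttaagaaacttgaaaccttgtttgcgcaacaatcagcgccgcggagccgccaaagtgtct
Id3 held CAGAC, or its reverse complement, 167 and 68 bases before the start, and Id2 held GGCGCC 231 bases before it. Over the windows of 300 bases, which also take in the 50 bases from the start, GGCGCC was in Gdf10, Id2 and Id4, and CAGAC in Bmp5, Bmp6, Gdf10 and Id3. Among all 32851 windows of that length 11.9% held GGCGCC and 49.6% CAGAC. These matches are letters only. A window without a match says nothing about binding elsewhere.

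Bmp4 (chr14:46383520-46390669, minus strand) was the ligand of the COP gate. In COP wells it lay between 0 and 2052 CPM with a median of 857, and 20 of 24 wells reached 100 CPM. In OPC wells the lowest, median and highest were 0, 4.79 and 318 CPM, and 3 of 97 reached 100. In oligodendrocyte wells they were 0, 0 and 279.5 CPM, and 1 of 270 reached 100. Most COP wells thus stood above nearly all OPC and oligodendrocyte wells, although 2 COP wells were at 0. Summed over wells, Bmp4 was at 11.2 CPM (95% Poisson interval 10.2 to 12.4) in OPC, 821 (806 to 837) in COP and 4.48 (4.06 to 4.94) in oligodendrocyte wells. The log2 ratio was 6.07 for COP over OPC and -7.23 for oligodendrocyte over COP, on a scale with 1 CPM added to each side. The low levels outside the COP gate came mostly from 1 set, since without 600s_182s Bmp4 was at 0.787 CPM in OPC and 1.49 CPM in oligodendrocyte wells. After thinning every well to 50000 reads, Bmp4 was detected in 36.1% of OPC wells (exact 95% interval 26.6 to 46.5), 83.3% of COP wells (62.6 to 95.3) and 14.1% of oligodendrocyte wells (10.2 to 18.8), against 66.0%, 91.7% and 36.3% before thinning. Reads of Bmp4 could be shared with the overlapping genes Gm15217 and Gm15222, since the strand setting of the counting is not given in the sources used here.

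**Figure D1:**
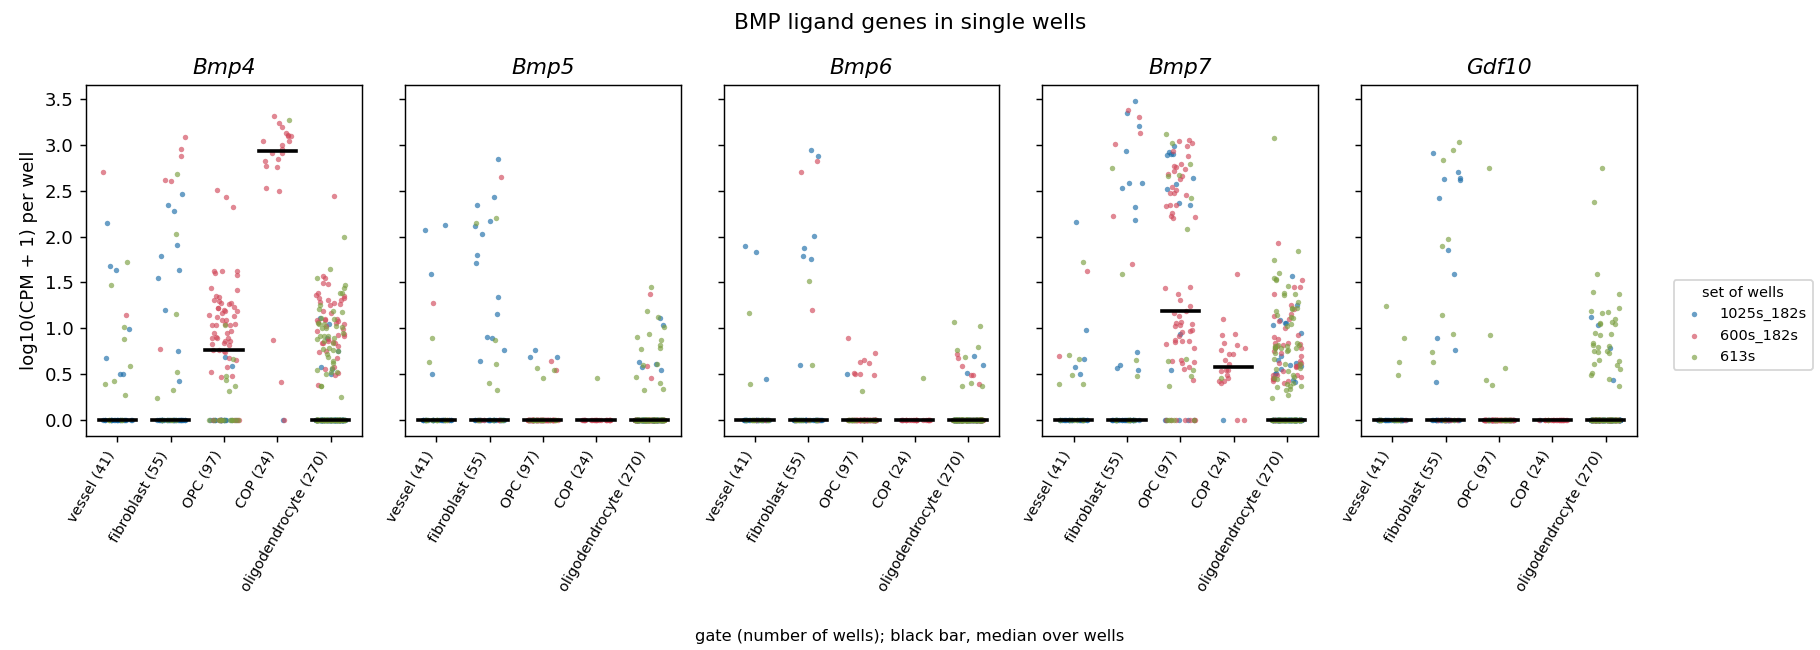
Each point is a well, coloured by set of wells, with log10(CPM + 1) of the 5 ligands on the vertical axis and the gates on the horizontal axis, and black bars are medians over wells. Bmp4 has a median of 857 CPM in COP wells, and Bmp7 splits the OPC wells, of which 43 of 97 reach 100 CPM.

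The COP gate was small because many wells with the COP gene Enpp6 also carried mature oligodendrocyte markers, such as Mog and Mag. With no limit on mature markers, an alternative added after the values were seen, 95 wells met the COP rule and 53 of them reached 100 CPM of Bmp4, with a median of 341 CPM. By set the summed level was 542 CPM in the 74 wells of 600s_182s and 573 CPM in the 14 wells of 613s. In the 7 wells of 1025s_182s the count was 0. The high level was thus present in 2 of the 3 sets.

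Bmp7 (chr2:172868012-172940321, minus strand) was the ligand of OPC and fibroblast wells. OPC wells ran from 0 to 1306 CPM with a median of 14.3, and 43 of 97 reached 100 CPM, so the gate held wells high and low in the gene. COP wells ran from 0 to 38.3 CPM (median 2.79), and 0 of 24 reached 100. Oligodendrocyte wells had a median of 0, and 1 of 270 reached 100. The summed level was 291 CPM (286 to 297) in OPC, 3.76 CPM (2.78 to 4.97) in COP and 5.06 CPM (4.61 to 5.55) in oligodendrocyte wells. The last 2 intervals overlapped. For COP over OPC the log2 ratio was -5.94. The summed level in OPC wells was 359 CPM in 1025s_182s, 263 in 600s_182s and 320 in 613s, whereas the medians over wells were 232, 14.3 and 3.37 CPM in that order. In those sets 10 of 17, 26 of 63 and 7 of 17 OPC wells reached 100 CPM. Without the wells that carried astrocyte or neuronal markers, the summed level was 241 CPM in OPC and 2.41 CPM in oligodendrocyte wells. Along the lineage, Bmp7 was therefore high in part of the OPC wells and Bmp4 in most COP wells. Of 97 OPC wells 43 reached 100 CPM of Bmp7, 3 of Bmp4 and 1 of both, and this overlap was not tested.

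Fibroblast wells carried all 5 ligands, each in a minority of wells. Bmp7 ran from 0 to 3018 CPM in them (median 0), with 15 of 55 wells at 100 CPM and a summed level of 226 CPM (219 to 232). Bmp4 ran from 0 to 1216 CPM (median 0), with 10 wells at 100 CPM and 89.0 CPM when summed. The ranges of fibroblast and OPC wells overlapped for both genes.

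Gdf10 (chr14:33923587-33937983, plus strand), also known as BMP3B, was a fibroblast gene. In vessel wells the highest value was 16.4 CPM and the summed level 0.466 CPM (0.187 to 0.960). It reached 100 CPM in 9 of 55 fibroblast wells (lowest 0, median 0, highest 1077), and the summed level was 129 CPM (124 to 134). In OPC wells the summed level was 11.6 CPM, but 1 of 97 wells held 98.3% of the count. In 24 COP wells the count was 0, for which 3 counts would be 0.230 CPM. Against that floor the COP gate was at least 50.2-fold lower than the OPC gate, a ratio that rests on that 1 OPC well. Whether Gdf10 acts on the Id genes was not tested.

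Bmp5 (chr9:75775364-75900310, plus strand) and Bmp6 (chr13:38345107-38500302, plus strand), close relatives of Bmp7, were also highest in fibroblast wells. Bmp5 reached 100 CPM in 9 of 55 of these (highest 697) and Bmp6 in 5 (highest 879), with medians of 0. Summed levels of Bmp5 were 9.78 CPM in vessel, 46.1 CPM in fibroblast and 0.247 CPM in OPC wells. For Bmp6 they were 3.13 CPM in vessel, 39.0 CPM in fibroblast and 0.302 CPM in OPC wells, and without wells that carried choroid plexus markers 0.141 CPM in vessel and 36.9 CPM in fibroblast wells. In the lineage both genes stayed below 0.5 CPM in each gate, where the counts were 1 to 39. Bmp5 overlaps Gm26903 and Gm47723, and Bmp6 overlaps 4930579J19Rik and Txndc5, so their counts are uncertain to that extent.

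Vessel wells carried little ligand. Of 41 wells, 5 had at least 1 of the 5 ligands at 100 CPM (12.2%), against 32 of 55 fibroblast wells (58.2%) and 46 of 97 OPC wells (47.4%). The share was 83.3% in COP wells, where each of the 20 ligand wells had Bmp4, and 1.48% in oligodendrocyte wells. Bmp4 summed to 25.9 CPM in vessel wells, but 1 well held 65.6% of that count. Without the wells that carried microglial markers, Bmp4 was at 41.1 CPM and Bmp7 at 1.20 CPM in vessel wells. Per exon length, the ligand with the highest level was Bmp4 in vessel wells at 11.5 CPM per kb, Bmp7 in fibroblast wells at 56.2 CPM per kb, Bmp7 in OPC wells at 72.4 CPM per kb and Bmp4 in COP wells at 365 CPM per kb.

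The targets were distributed differently from the ligands. Id3 (chr4:136143497-136145755, plus strand) was high in most vessel and fibroblast wells. Vessel wells ran from 0 to 2447 CPM with a median of 915, and 34 of 41 reached 100 CPM. Fibroblast wells ran from 0 to 2402 CPM with a median of 1074, and 46 of 55 reached 100 CPM. In OPC wells the median was 2.27 CPM and the highest 287, and 5 of 97 reached 100 CPM. The ranges of vessel and fibroblast wells were alike, and OPC wells reached only the lower part of them. Summed levels were 885 CPM (870 to 900) in vessel, 1094 CPM (1080 to 1108) in fibroblast, 13.1 CPM (11.9 to 14.3) in OPC, 20.0 CPM (17.7 to 22.6) in COP and 30.1 CPM (29.0 to 31.2) in oligodendrocyte wells. In the COP gate 1 of 24 wells held 91.2% of the Id3 count, and the median was 1.44 CPM. In oligodendrocyte wells Id3 was spread over 219 of 270 wells (median 9.14 CPM), of which 33 reached 100 CPM. Without wells that carried astrocyte or neuronal markers, Id3 was at 20.2 CPM in oligodendrocyte wells, near the level of COP wells. In OPC wells it was then at 7.80 CPM.

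Id1 (chr2:152736251-152737410, plus strand) was highest in vessel wells by its median and its sum. They ran from 0 to 1852 CPM with a median of 670, and 33 of 41 reached 100 CPM. Fibroblast wells ran from 0 to 2578 CPM with a median of 26.7, and 25 of 55 reached 100 CPM. Medians over wells were 0 in OPC and COP wells. Summed levels were 689 CPM (676 to 702) in vessel, 278 CPM (270 to 285) in fibroblast, 11.9 CPM (10.8 to 13.1) in OPC, 0.691 CPM (0.316 to 1.31) in COP and 5.49 CPM (5.02 to 5.99) in oligodendrocyte wells. Without the vessel wells that carried microglial markers, Id1 was at 695 CPM and Id3 at 965 CPM in the rest of the gate. Wells with endothelial markers only and those with mural markers too had 681 and 703 CPM of Id1.

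Id2 (chr12:25093799-25097140, minus strand) was the Id gene of the precursors. OPC wells ran from 0 to 1042 CPM with a median of 146, and 53 of 97 reached 100 CPM. COP wells ran from 0 to 247 CPM with a median of 2.66, and 2 of 24 reached 100 CPM. Oligodendrocyte wells had a median of 2.97 CPM, with 18 of 270 at 100 CPM. OPC wells were thus mostly above COP wells, although the ranges overlapped. Summed levels were 189 CPM (185 to 194) in OPC, 17.1 CPM (14.9 to 19.5) in COP and 23.7 CPM (22.7 to 24.7) in oligodendrocyte wells. The order of oligodendrocyte and COP wells turned with the wells used, since oligodendrocyte wells were at 8.65 CPM without those that carried astrocyte or neuronal markers and at 11.2 CPM, against 13.9 CPM in COP wells, without 613s. With gates at 50 CPM the COP level was 1.21 CPM. Vessel wells had 188 CPM (181 to 195), an interval that overlaps that of OPC wells, and fibroblast wells had 392 CPM (384 to 401). The summed level of Id2 in OPC wells was 205 CPM in 1025s_182s, 188 in 600s_182s and 182 in 613s, and 192 CPM without the wells that carried astrocyte or neuronal markers.

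**Figure D2:**
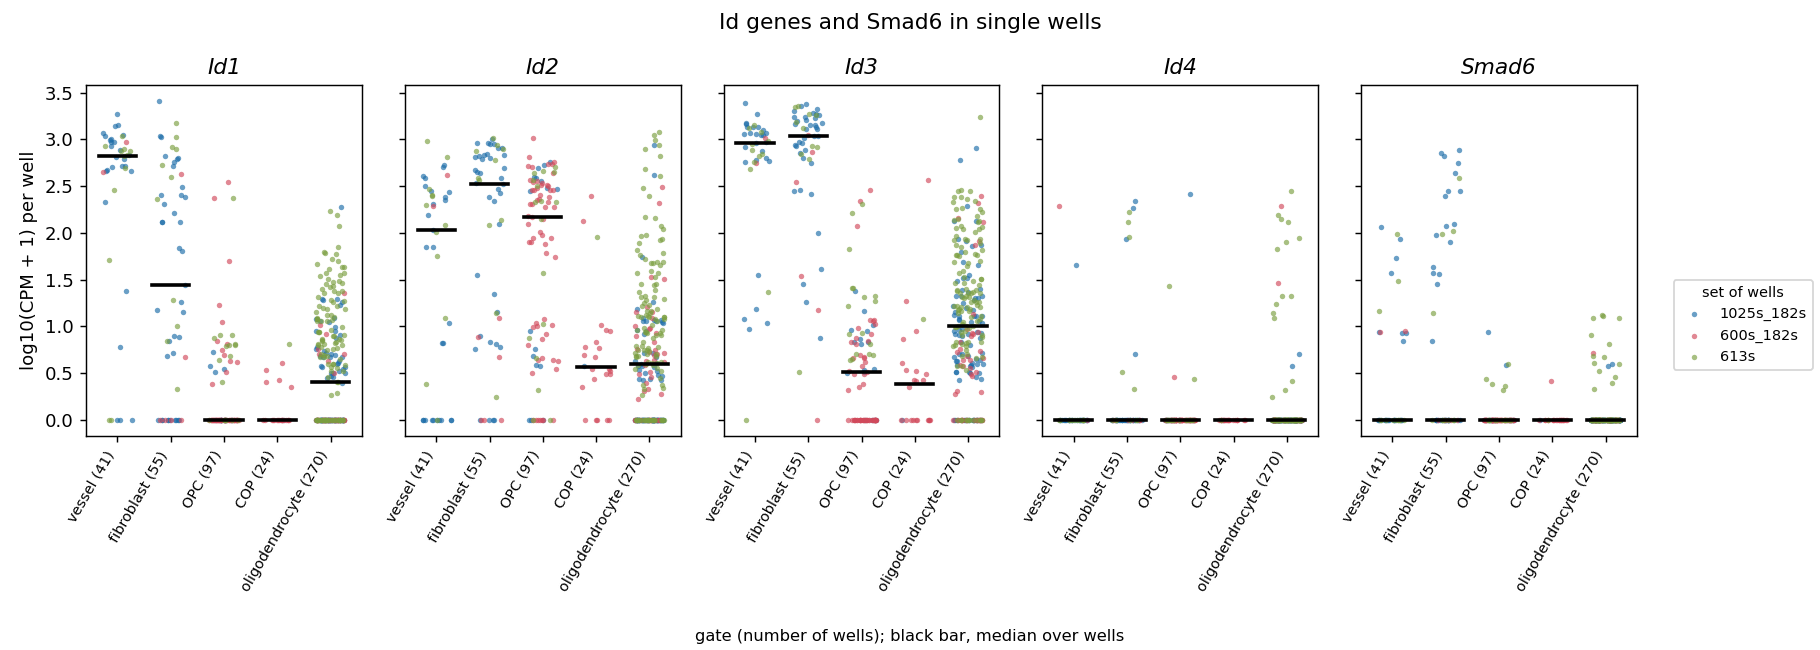
Each point is a well, coloured by set of wells, with log10(CPM + 1) of the 4 Id genes and Smad6 on the vertical axis and the gates on the horizontal axis, and black bars are medians. Id3 has medians of 915 CPM in vessel wells and 1074 CPM in fibroblast wells, while Id2 is the Id gene with a median above 100 CPM in OPC wells.

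Id4 (chr13:48261228-48266026, plus strand) was sparse everywhere. It reached 100 CPM in 1 of 41 vessel, 4 of 55 fibroblast, 1 of 97 OPC, 0 of 24 COP and 5 of 270 oligodendrocyte wells. Single wells held 90.7% of the vessel count and 96.6% of the OPC count. It overlaps A330033J07Rik and Gm49291, which adds to the uncertainty. Smad6 (chr9:63953076-64022059, minus strand) was found mainly in fibroblast and vessel wells. It reached 100 CPM in 1 of 41 vessel wells (highest 115) and 12 of 55 fibroblast wells (highest 767), and in 0 wells of the lineage gates. Summed levels were 13.4 CPM (11.7 to 15.4) in vessel, 83.6 CPM (79.7 to 87.7) in fibroblast and 0.220 CPM (0.0948 to 0.432) in OPC wells. Oligodendrocyte wells had 0.208 CPM (0.125 to 0.325), an interval that overlaps that of OPC wells, and COP wells had 1 count.

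Per exon length, Id1 was at 594 CPM per kb in vessel wells, ahead of Id3 at 494 and Id2 at 77.2 CPM per kb. In fibroblast wells Id3 led at 611 CPM per kb, followed by Id1 at 239 and Id2 at 161 CPM per kb. In OPC wells Id2 led at 77.7 CPM per kb, with Id1 at 10.2 and Id3 at 7.31 CPM per kb. At least 1 of Id1, Id2 and Id3 reached 100 CPM in 38 of 41 vessel, 48 of 55 fibroblast, 57 of 97 OPC, 3 of 24 COP and 48 of 270 oligodendrocyte wells. The gate with the highest share of ligand wells, COP, had 21 of 24 wells with none of these 3 targets at 100 CPM.

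Calls between gates were made over all genes and needed a ratio of at least 2 with at least 10 CPM in the higher gate. This rule gives a size only, and no test was possible in 1 sample. The members were chosen with earlier results of these data known, so their shares beside those of all genes are descriptions. A gene with 10 CPM in 1 of the 2 gates only can be called in that direction alone. Between COP and OPC wells, 6 members had 10 CPM in either gate. Bmp4 alone was called higher, against 14.5% of 11514 genes. Bmp7, Gdf10, Id1 and Id2 were called lower, against 26.8% of these genes. Their log2 ratios were -5.94, -3.65, -2.93 and -3.39 in that order, while Id3 was not called at 0.58. The direction of Id1 turned to 1.81 when wells of mixed lineage entered their gates, and its call was lost with gates at 200 CPM (-2.34, with under 10 CPM in both) and with no limit on mature markers (-1.01 and under 10 CPM in both). Within 600s_182s, the set with enough wells of both gates, the ratios were -5.73 for Bmp7, 0.00 for Gdf10, -3.41 for Id1 and -3.63 for Id2, and 5.42 for Bmp4. The OPC well that held nearly all Gdf10 was in 613s. Without that set the ratio of Gdf10 was 0.00, with no call, and Id3 passed the rule at 1.09. Without the OPC wells that carried astrocyte or neuronal markers Id3 also passed it, at 1.26, and Gdf10 was at -0.14, but the Id3 of COP wells rested on 1 well.

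Between oligodendrocyte and COP wells Bmp4 alone was called, lower, against 23.9% of 10801 genes. Of the 3 members with 10 CPM, Id2 and Id3 were not called, at 0.45 and 0.56. Within 600s_182s they were at -0.11 and -0.08. Id2 passed the rule with gates at 50 CPM, at 3.17, and was at -0.91 without wells that carried astrocyte or neuronal markers.

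Between fibroblast and OPC wells 9 of 10 members were called higher, against 23.0% of 12588 genes (51.7% in either direction). The median log2 ratio of the members was 3.90, against -0.15 over all tested. Bmp5, Bmp6, Id4 and Smad6 had 10 CPM in the fibroblast gate only and could not be called lower, and the members were chosen with earlier results known. The ratios were 6.28 for Id3, 6.12 for Smad6, 5.24 for Bmp5, 4.94 for Bmp6, 4.43 for Id1, 3.37 for Gdf10, 2.88 for Bmp4, 2.05 for Id4 and 1.05 for Id2. Bmp7 was not called at -0.37, and its value by set was -0.82 in 1025s_182s, 2.07 in 600s_182s and -1.53 in 613s. The 6 fibroblast wells of 600s_182s went against several of these calls. Within that set Id2 was at -5.50, Id4 at -0.06, and Gdf10 and Smad6 at 0.00. Id4 was at -0.29 within 1025s_182s and 3.99 within 613s. The call of Id2 was lost in 4 of 14 alternatives, at 0.79 without 1025s_182s, 0.90 with gates at 50 CPM, 0.93 with mixed wells in their gates and 0.90 by the mean over wells. That of Id4 was lost in 2, at 0.99 without 600s_182s and 0.94 with gates at 50 CPM. Other called ratios moved by more than 1.5-fold without 1 of the sets. Without 1025s_182s they were 3.66 for Bmp4, 4.34 for Bmp5, 4.04 for Id4 and 5.02 for Smad6. Without 600s_182s they were 4.88 for Bmp4, 2.15 for Gdf10 and 5.17 for Id1, and without 613s Gdf10 was at 6.32.

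Between vessel and OPC wells Bmp4, Id1, Id3 and Smad6 were called higher, against 23.9% of 12671 genes, and Bmp7 and Gdf10 lower, against 31.2%. Ratios were 5.97 for Id3, 5.74 for Id1, 3.57 for Smad6 and 1.14 for Bmp4, and -5.61 for Bmp7 and -3.10 for Gdf10. Of 41 vessel wells 27 were from 1025s_182s and 2 from 600s_182s, the set of 63 of the 97 OPC wells. Within 1025s_182s and 613s, in that order, Id3 was at 7.38 and 4.68, Id1 at 8.72 and 5.50 and Smad6 at 3.54 and 2.75. Bmp4 was at 3.23 and 1.67, Bmp7 at -6.02 and -6.21 and Gdf10 at 0.00 and -4.60. Id2 was not called at -0.01, and Bmp5, Bmp6 and Id4 were under 10 CPM in both gates. The calls of Bmp4 and Gdf10 rested on 1 well each. Gdf10 turned positive with gates at 50 CPM (0.55), with mixed wells in their gates (1.07) and without wells that carried astrocyte or neuronal markers (0.45), and Bmp4 lost its call in 7 of 15 alternatives. Without 613s, the set of the 1 OPC well, the ratio of Gdf10 was 0.00. Without 600s_182s, Bmp4 was under 10 CPM in both gates. Smad6 dropped under 10 CPM without 1025s_182s, at a ratio of 3.19, and without the wells that held microglial markers, at 3.06. Id1 was at 6.42 and Gdf10 at -4.38 without 600s_182s, and Id3 at 6.63 without 613s.

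Between vessel and fibroblast wells Id1 alone was called higher, against 22.5% of 11927 genes. Bmp4, Bmp5, Bmp6, Bmp7, Gdf10, Id2, Id4 and Smad6 were called lower, against 25.2%, and the median over the members was -1.93, against 0.00 over all tested. Of these, Bmp5, Bmp6, Bmp7, Gdf10 and Id4 had 10 CPM in the fibroblast gate only and could not be called higher. The ratio was 1.31 for Id1 and -0.31, not called, for Id3. Each of the 5 ligands was lower in vessel wells, with ratios of -1.74 for Bmp4, -2.13 for Bmp5, -3.28 for Bmp6, -5.24 for Bmp7 and -6.47 for Gdf10. Smad6 had -2.55, Id4 -1.11 and Id2 -1.06. The call of Bmp4 was lost with gates at 50 CPM (-0.86). With mixed wells in their gates the calls of Bmp5 (-0.47), Id1 (0.87) and Id2 (-0.67) were lost, and the ratios were -2.32 for Bmp7 and -1.81 for Gdf10. Without wells that carried choroid plexus markers they were -5.05 for Bmp6 and -6.31 for Bmp7. Id4 also lost its call with 5 CPM added (-0.83) and without wells that held microglial markers (-0.24). Without 1025s_182s, the calls of Id1 (1.00 after rounding), Id2 (-0.56) and Id4 (-0.28) were lost, and that of Id4 also without 613s (-0.26). Ratios that moved by more than 1.5-fold without losing their call were Bmp5 (-3.30), Bmp6 (-4.34) and Smad6 (-1.83) without 1025s_182s, Bmp4 (-2.38) and Id4 (-3.46) without 600s_182s and Bmp4 (-1.12) without 613s. The comparisons with OPC share the OPC wells and those with fibroblasts share the fibroblast wells, so they are not independent of each other.

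**Figure D3:**
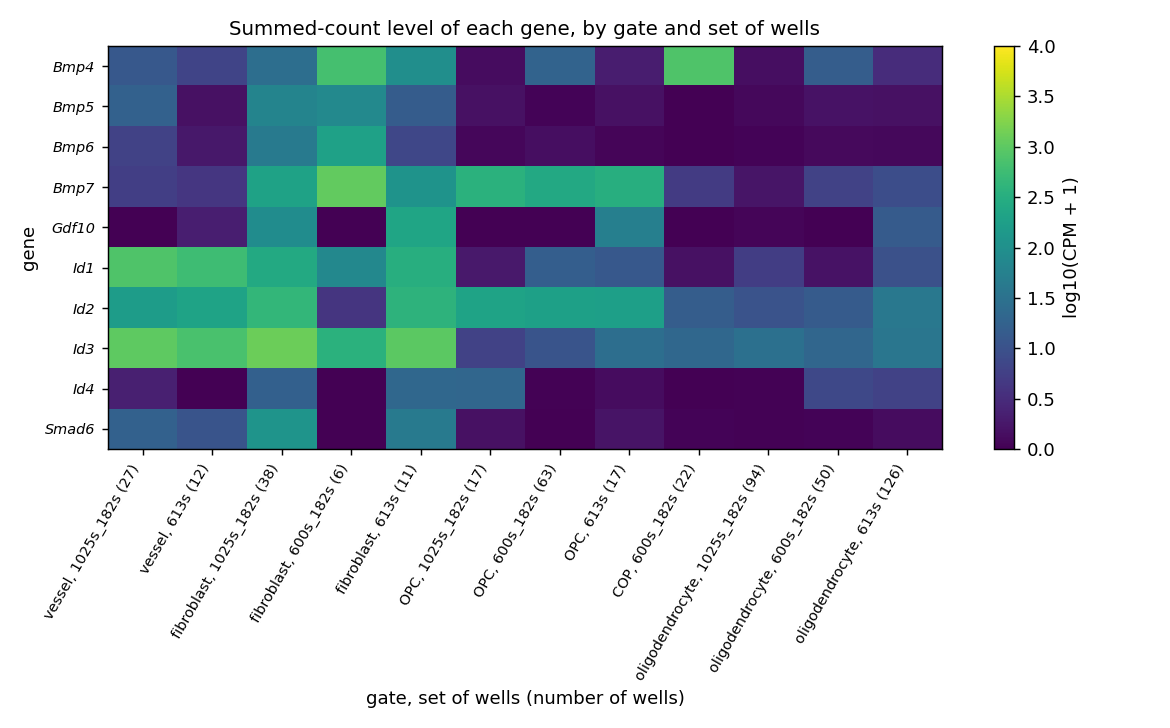
Colour gives log10(CPM + 1) of summed counts for the 10 genes (rows) in each gate and set of wells with at least 5 wells (columns). The 22 COP wells of 600s_182s have the highest Bmp4 level, and the 6 fibroblast wells of the same set combine high Bmp4 and Bmp7 with low Id2.

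Within the fibroblast gate the ligands did not share wells evenly. Of the 10 wells with 100 CPM of Bmp4, 8 also had Bmp7, and these 8 were 8 of the 15 wells with Bmp7. Of the 9 wells with Gdf10, 0 had Bmp4 or Bmp7 at 100 CPM, and 3 had Bmp5. Among all 55 fibroblast wells 10 had Bmp4, 15 Bmp7 and 9 Bmp5 at that level. In 600s_182s, 5 wells had Bmp7 and 0 had Gdf10. With 9 Gdf10 wells, the lack of overlap was not tested against these shares. All 9 Gdf10 wells had Id2 at 100 CPM, against 4 of the 15 Bmp7 wells. Over all 55 fibroblast wells 35 had Id2 at that level. Of the 12 wells with Smad6 at 100 CPM, 11 also had Id3, which 46 of all 55 had. Spearman correlations over the 55 wells were 0.51 for Bmp4 with Bmp7, 0.53 for Bmp4 with Bmp6, 0.66 for Id2 with Id3, 0.50 for Gdf10 with Id2, -0.49 for Bmp7 with Id2 and -0.44 for Bmp7 with Id3. They are descriptions, since these wells share libraries and sets, and the correlation of a gene with depth ran up to 0.37, for Gdf10.

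The set of wells moved with this split. Of the 6 fibroblast wells of 600s_182s, 5 had both Bmp4 and Bmp7 at 100 CPM and 1 had neither. In these 6 wells Bmp4 ran from 4.93 to 1216 CPM (median 583), Bmp7 from 49.3 to 2402 CPM (median 1190) and Id2 from 0 to 11.3 CPM (median 1.84). Gdf10, Id4 and Smad6 had a count of 0 in all 6. In the 38 wells of 1025s_182s the summed levels were 26.9 CPM of Bmp4, 202 CPM of Bmp7, 439 CPM of Id2, 86.9 CPM of Gdf10 and 116 CPM of Smad6. In the 11 wells of 613s they were 94.0 CPM of Bmp4, 111 CPM of Bmp7, 380 CPM of Id2, 224 CPM of Gdf10 and 43.2 CPM of Smad6. Markers differed too. Dpep1, a dipeptidase gene and 1 of the gate markers, had a median of 0 CPM (highest 6.62) in the 6 wells of 600s_182s, against 1012 CPM in 1025s_182s and 895 CPM in 613s. Col3a1, a fibrillar collagen, had medians of 1725 CPM in 600s_182s, 15.2 CPM in 1025s_182s and 177 CPM in 613s. Dcn and Col1a2 had medians of at least 1251 CPM in each of the 3 sets. In 1025s_182s alone, 2 of the 3 wells with Bmp4 at 100 CPM also had Bmp7, and 4 of the 9 with Bmp7 also had Id2.

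**Figure D4:**
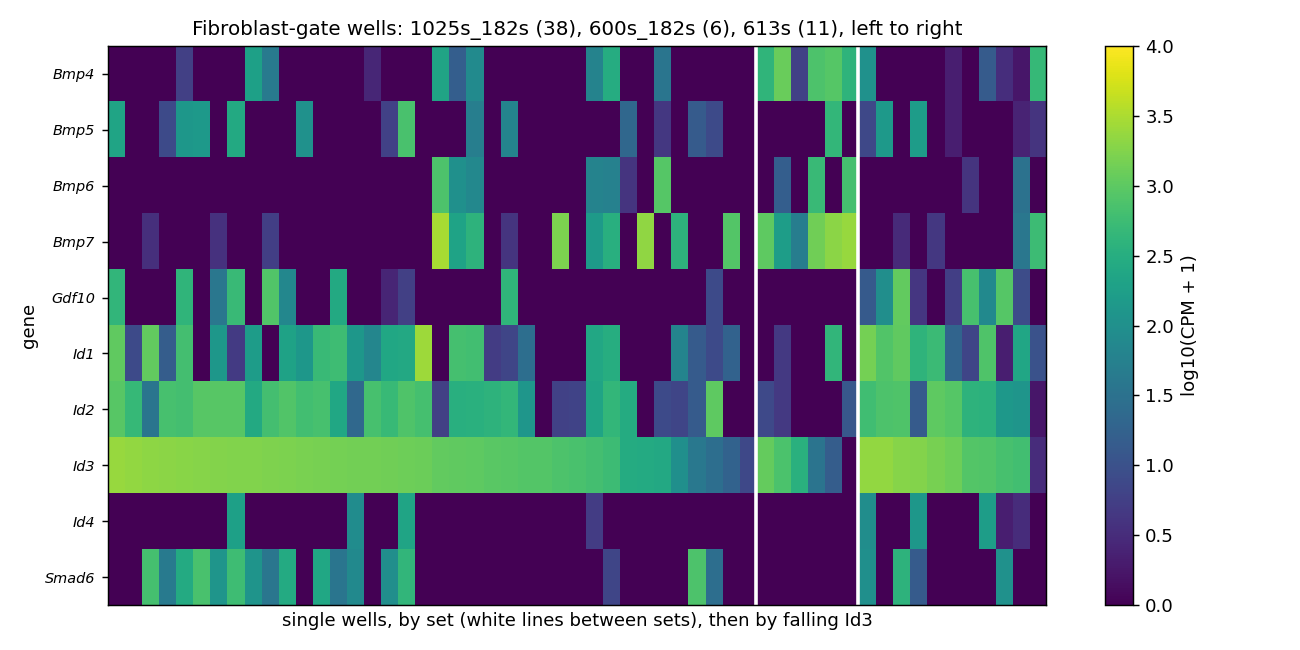
Columns are the 55 fibroblast wells, ordered by set and then by falling Id3, rows are the 10 genes, and colour is log10(CPM + 1). Of the 6 wells of 600s_182s, 5 carry Bmp4 and Bmp7 at 100 CPM, and all 6 have Id2 at no more than 11.3 CPM. Gdf10 and Smad6 lie in wells of the other sets.

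Other genes of the pathway were followed in lists, with counts of genes called among those with 10 CPM in either gate. Over all genes tested, 14.5% were called higher and 26.8% lower for COP over OPC wells. The shares were 18.8% and 23.9% for oligodendrocyte over COP wells and 23.0% and 28.7% for fibroblast over OPC wells. They were 23.9% and 31.2% for vessel over OPC wells and 22.5% and 25.2% for vessel over fibroblast wells. Counts here and below are to be read against these shares, and no list was tested. Of 8 receptors, vessel over OPC wells gave 4 higher and 2 lower of 7. The co-receptor Eng was at 1367 CPM in vessel and 4.94 CPM in OPC wells (log2 ratio 7.85), and the endothelial type I receptor Acvrl1 at 360 and 0.823 CPM (7.63). The type II receptor Bmpr2 was at 314 CPM in vessel and 46.7 CPM in OPC wells (2.72). Bmpr1b was at 1.86 and 19.6 CPM (-2.85), but 98.3% of its count in OPC wells came from 1 of them. Fibroblast over OPC wells gave 5 receptors higher and 2 lower of 7, with Eng at 1015 CPM in fibroblast wells (7.42), Acvrl1 at 83.9 CPM (5.54), Bmpr1b at 0.145 CPM (-4.17) and the type I receptor Acvr1 at 37.2 CPM (2.36). Within 600s_182s, Acvrl1 was at -0.81 and Acvr1 at 0.99, neither past the ratio of the rule. Vessel over fibroblast wells gave 2 higher and 0 lower of 6, Acvrl1 at 2.09 and Bmpr2 at 1.06, while Eng was not called at 0.43. COP over OPC wells gave 2 higher and 2 lower of 6, with the type II receptors Acvr2b at 2.24 and Acvr2a at -1.08 and Acvr1 at 1.08 (0.62 within 600s_182s). Bmpr1b had 0 counts in COP wells, at least 85.1-fold lower than OPC wells by a floor of 3 counts, again from that 1 OPC well. Oligodendrocyte over COP wells gave 0 higher and 3 lower of 5, the type I receptor Bmpr1a at -2.02, Acvr2a at -1.73 and Acvr2b at -1.31.

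Of the 4 signal transducers, COP over OPC wells gave 0 of 3 called, with Smad1 at 0.54, Smad5 at -0.13 and Smad4 at -0.47, and Smad9 under 10 CPM in both. Oligodendrocyte over COP wells gave 1 of 3, Smad1 at -1.85. Fibroblast over OPC wells gave 3 higher of 4, Smad9 at 2.57, Smad4 at 1.71 and Smad5 at 1.10. The direction turned within a set for Smad9, at -2.37 in 600s_182s, and for Smad5, at -2.52 in 613s, and Smad4 was at 0.98 in 613s. Vessel over OPC wells gave 1 higher of 3, Smad4 at 1.15 (2.26 in 1025s_182s and -0.17 in 613s). Vessel over fibroblast wells gave 2 lower of 4, Smad9 at -3.53 and Smad5 at -1.47, but Smad5 was at 1.75 in 613s.

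Among 16 inhibitors, OPC wells carried several secreted BMP antagonists by summed level, not all of them in every set. COP over OPC wells gave 3 higher and 5 lower of 10. The lower ones were led by Bmper at 2.07 CPM in COP and 71.0 CPM in OPC wells (-4.55), Nbl1 at 1.61 and 47.0 CPM (-4.20), chordin (Chrd) at 2.99 and 42.8 CPM (-3.46) and Chrdl1 at 0.307 and 12.7 CPM (-3.39). Within 600s_182s they were at -3.17, -4.02, -4.06 and -4.13 in that order. Oligodendrocyte over COP wells gave 2 higher and 1 lower of 6, Chrdl1 at 3.26, Crim1 at -2.44 and the inhibitory Smad7 at 2.08. Within 600s_182s, the set with enough wells of both gates, Chrdl1 was at -0.09, Crim1 at -3.55 and Smad7 at 2.84. Fibroblast over OPC wells gave 7 higher and 1 lower of 11. Led by size, these were Fstl1 at 761 CPM in fibroblast and 23.1 CPM in OPC wells (4.98), Sostdc1 (4.25), the decoy receptor Bambi (4.20) and, lower, Chrdl1 (-3.71). Sostdc1 turned to -3.40 within 600s_182s, and Chrdl1 was at 0.00 within 1025s_182s. Vessel over OPC wells gave 5 higher and 3 lower of 12, led by Bmper (-6.08), Chrd (-5.19), Sostdc1 (3.89) and Chrdl1 (-3.23). In both sets with enough wells of both gates, the low Chrd was absent, at 0.17 in 1025s_182s and 0.42 in 613s, and Chrdl1 was at 0.00 and -1.45. Bmper and Sostdc1 kept their direction there, at -7.06 and 6.31 in 1025s_182s and -6.97 and 4.92 in 613s. Vessel over fibroblast wells gave 1 higher and 5 lower of 11, with Crim1 at 3.29 and Bmper, Chrd and Fstl1 at -5.79, -4.90 and -3.38.

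The 6 further targets did not follow 1 pattern. Msx1, a homeobox target of BMP, was at 103 CPM in vessel, 146 CPM in fibroblast and 0.274 CPM in OPC wells, and Atoh8 at 14.9, 103 and 2.20 CPM. Hes1, shared with Notch signalling, was at 143 CPM in vessel, 217 CPM in fibroblast and 36.9 CPM in OPC wells. Hey1 was at 208 CPM in vessel, 1.02 CPM in fibroblast and 75.0 CPM in OPC wells. Tmem100 ran the other way, at 126 CPM in vessel, 81.0 CPM in fibroblast and 431 CPM in OPC wells. Msx2 was at 0.466 CPM in vessel, 17.8 CPM in fibroblast and 0.0549 CPM in OPC wells. In counts, fibroblast over OPC wells gave 4 higher and 2 lower of 6, vessel over OPC wells 4 higher and 1 lower of 5, and vessel over fibroblast wells 1 higher and 2 lower of 6, Hey1 at 6.70, Msx2 at -3.68 and Atoh8 at -2.71. For fibroblast over OPC wells, the direction within 600s_182s turned for Atoh8 (-2.16, against 5.03 over all sets) and Tmem100 (0.61, against -2.40), and Msx2 (4.16) was at 0.00 there and 0.36 in 613s. For vessel over fibroblast wells Msx2 was at 0.65 in 613s, and for vessel over OPC wells Hey1 (1.46) was at 0.70 in 1025s_182s. COP over OPC wells gave 0 higher and 2 lower of 3, Hes1 at -4.30 and Tmem100 at -2.05, and Hey1 was not called at -0.54. Oligodendrocyte over COP wells gave 0 higher and 2 lower of 2, Tmem100 at -2.92 and Hey1 at -1.74.

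**Figure D5:**
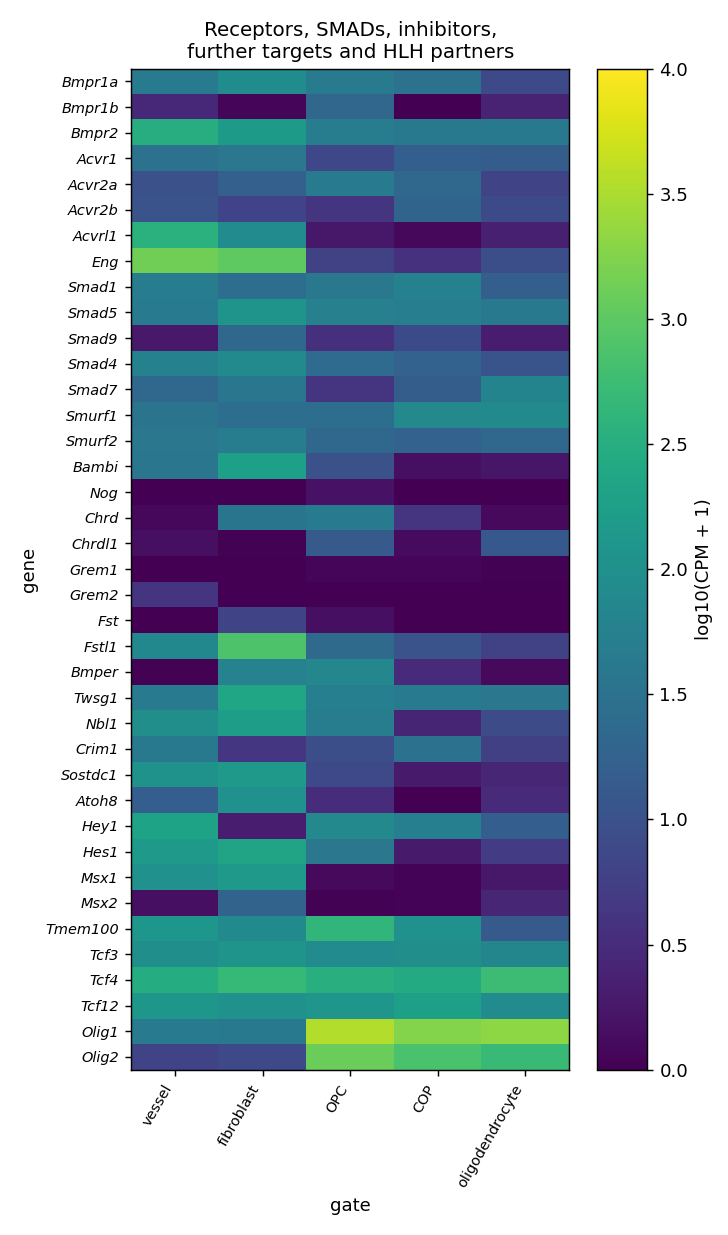
Colour gives log10(CPM + 1) of summed counts for receptors, SMAD genes, inhibitors, further targets and helix-loop-helix partners (rows) in the 5 gates (columns). Eng is at 1367 CPM in vessel wells and 4.94 CPM in OPC wells, and Olig1 at 42.1 CPM in vessel wells and 3497 CPM in OPC wells.

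Of 5 helix-loop-helix partners of ID proteins, the E proteins Tcf3, Tcf4 and Tcf12 were present in each gate. Their log2 ratios lay between -0.22 and 0.57 for COP over OPC, with none called, and oligodendrocyte over COP wells had Tcf12 called lower at -1.09 (-0.96 within 600s_182s). The lineage factors Olig1 and Olig2 were not called between COP and OPC wells (-0.93 and -0.84). In oligodendrocyte over COP wells Olig1, Olig2, Tcf3 and Tcf4 were not called. Fibroblast over OPC wells and vessel over OPC wells each gave 2 lower of 5, namely Olig2 (-7.36 in fibroblast and -7.58 in vessel wells) and Olig1 (-6.41 and -6.34). Vessel over fibroblast wells gave 0 of 4 called.

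Of 11 other ligands, few reached 10 CPM. Inhbb, the activin beta-B chain, was the highest in OPC wells at 52.9 CPM. It was at 0.537 CPM in COP wells (-5.13), 0.0968 CPM in fibroblast wells (-5.62) and a count of 0 in vessel wells, at least 265-fold lower than OPC wells against a floor of 3 counts. Gdf11 was at 24.2 CPM in COP and 6.80 CPM in OPC wells (1.69), and at 3.49 CPM in oligodendrocyte wells (-2.49 over COP). Bmp2, the nearest relative of Bmp4, was at 16.4 CPM in vessel, 3.00 CPM in fibroblast and 0.412 CPM in OPC wells, with ratios of 3.62 over OPC and 2.12 over fibroblast wells. Over OPC wells it was at 2.76 in 1025s_182s and -0.19 in 613s, and over fibroblast wells at 1.89 and 0.88 in that order.

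The genes most like Bmp4 and Id3 were taken by the Pearson correlation of log2(CPM + 1) over 12 points, each a gate within a set, among 10583 genes. For Bmp4 they were Bace2 (0.905), Pard6g (0.895), Cox6b2 (0.880), Fam101a (0.866) and Cgrrf1 (0.857). For Id3 they included Msx1 (0.978), Myl12a (0.975), Ang (0.974) and Ptrf (0.971), and Id1 had 0.927. Between members, Bmp4 and Id3 had 0.331 and Bmp4 and Id1 0.151. These are descriptions over points that share sets and depth.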

How the data were processed

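The deposited table holds whole-number counts of reads per gene and well, not normalized, per the file headers and values. Per the submitters' processing notes, the tools were Subread 1.4.6-p5 with featureCounts, TopHat2 2.1.1 and SAMtools 0.1.18, and the builds mm10 and GRCm38. The sources used here do not give the strand setting or annotation of the counting. Wells with at least 50000 reads and 1000 genes were kept (857 of 1152), and no 2 wells had identical counts. Counts were scaled to CPM by each well's total. Gates were set at 100 CPM of marker genes: OPC wells had Pdgfra, at least 2 of 5 other OPC markers and Enpp6 under 100 CPM, COP wells the same with Enpp6 and COP markers and Pdgfra under, both with under 3 of 6 mature markers. Oligodendrocyte, fibroblast and endothelial wells had at least 3 of 6 markers of their list, mural wells 3 of 8, and oligodendrocyte wells Pdgfra and Enpp6 under. Vessel wells were endothelial or mural. Of each gate, 35 of 97 OPC, 6 of 24 COP, 204 of 270 oligodendrocyte, 33 of 55 fibroblast and 25 of 41 vessel wells stayed in it at both 50 and 200 CPM. The members and lists were chosen with earlier results of these data known. From each pathway list, the up to 4 called genes with the largest absolute log2 ratio were named, and any gene of a list of 6 or fewer; a few genes are not reported here.

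CPM of counts summed over wells was compared by log2 ratios with 1 CPM added to each side. Wells are not replicates, so no p-value was computed. Sample titles could not be matched to well names, and the wells were taken as 1 sample. The Poisson 95% intervals treat reads as independent, and the Clopper-Pearson 95% intervals treat wells as independent draws. Reads without molecular identifiers are not independent molecules, and wells are not replicates. Both kinds of interval can therefore be too narrow, and neither covers spread between animals. Wells were sorted into plates, and no doublet caller was run. Wells that met the rules of more than 1 of the oligodendrocyte lineage, fibroblasts and vessel cells were left out. Microglial, astrocyte, neuronal and choroid plexus markers removed no well from the main gates. The call rule was run on simulated Poisson counts with changes set well past the rule. That checks the code only, since the simulation held no spread between wells or sets. Symbols were matched to GENCODE vM21 of GRCm38 (42052 of 46517, 90.4%), and coordinates come from it. Python 3.11.15, numpy 2.4.6, pandas 2.3.3, scipy 1.17.1 and matplotlib 3.10.9 were used. Alternatives changed the gate level, the treatment of mixed wells, the depth minimum (100000 reads), the weighting of wells, the scaling, the CPM added (5), the 10 CPM floor, the sets used and, added after seeing the data, the limit on mature markers and the wells with microglial, astrocyte, neuronal or choroid plexus markers.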

Additional observations from a re-analysis of the deposited data

Results flagged for a closer look

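The 260 wells outside every gate entered no comparison, and reads of all 10 genes were found in them. Their summed levels were 195.9 CPM of Bmp4, 112.9 CPM of Bmp7, 1.86 CPM of Bmp5, 0.167 CPM of Bmp6 and 0.322 CPM of Gdf10. For the targets they were 80.4 CPM of Id2, 30.6 CPM of Id3, 4.50 CPM of Id1, 1.56 CPM of Id4 and 0.191 CPM of Smad6. Bmp4 reached 100 CPM in 43 of these wells, Bmp7 in 48 and Id2 in 82, with medians of 10.9, 5.40 and 10.8 CPM. Of the 260 wells 233 had at least 3 mature oligodendrocyte markers, 152 of those with Pdgfra and 106 with Enpp6 at 100 CPM, and 183 were from 600s_182s. For Bmp5, 1 well held 89.1% of the count.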

How the results depend on the processing

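Of 30 called ratios of the members, 18 kept their call and direction under every alternative run. Over 405 recomputed values of the 30, 364 kept both, 37 kept the direction without the call and 4 reversed. With no CPM floor a called ratio keeps its value and call by construction, and these values are among the 364. Gdf10 in vessel over OPC wells was -3.10, and turned positive at 0.55 with gates at 50 CPM, 1.07 with mixed wells in their gates and 0.45 without wells that held astrocyte or neuronal markers (added after seeing the data). Id1 in COP over OPC wells was -2.93, and 1.81 with mixed wells included. Bmp4 in vessel over OPC wells kept its call in 8 of 15 alternatives (0.02 to 2.50), and Id1 in COP over OPC wells fell short with no limit on mature markers (-1.01). Over all genes, 3204 were called between vessel and fibroblast wells with mixed wells included, against 5693. With no CPM floor, 7165 were called between COP and OPC wells, against 4757, and 7224 between oligodendrocyte and COP wells, against 4606. The cause was not tested, except that dropping the floor admits low genes by construction. Leaving out 600s_182s could not be run for the COP gate, which then kept fewer than 5 wells. No paired analysis was possible because there was 1 sample and no replicate numbers. Ratios of the low members rest on few reads: Bmp5, Bmp6 and Smad6 had 1 count each in COP wells, the gate with the highest median depth (538292 reads).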

Other observations

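The 110 wells that met the rules of more than 1 lineage are in no comparison. They had 851 CPM of Id3 (median over wells 668), 381 CPM of Id1 and 272 CPM of Id2, and 81 of 110 reached 100 CPM of Id3. Ligands were lower, at 70.5 CPM of Bmp7, 53.1 CPM of Bmp5, 34.3 CPM of Gdf10, 32.5 CPM of Bmp6 and 28.9 CPM of Bmp4, and 1 well held 50.6% of the Bmp5 and 1 well 58.2% of the Gdf10 count. Of these wells 43 joined fibroblast and oligodendrocyte lineage markers, 32 vessel and lineage markers, 17 fibroblast and vessel markers and 18 all 3, at a median depth of 154410 reads.

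Among vessel wells, the 12 with endothelial and mural markers had 559 CPM of Acvrl1, 25.1 CPM of Smad6 and 22.1 CPM of Bmp5, against 253, 7.16 and 3.17 CPM in the 29 with endothelial markers only. Smad6 reached 100 CPM in 1 of the 12 and in 0 of the 29, and all of the Bmp5 in the 12 came from 2 wells.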
